A study of Mus musculus with 15 samples.

Results

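The 25 genes described here were expressed in mouse bone marrow progenitor cells and were low, though often still detected, in each of 4 macrophage groups. A gene was taken if its FPKM (fragments per kilobase of transcript, scaled to the library total, so a level corrected for gene length and sequencing depth) was under 1 in all 12 macrophage libraries and at least 10 in all 3 progenitor libraries. Of 17030 genes in the table, 27 met both limits, and Cd27 and Slc14a1 were left out because genes of those symbol families (8 symbol prefixes) and 6 named progenitor genes were not considered. The genes were selected on their macrophage and progenitor FPKM values, so the difference between those cells is a description here and carries no test.

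The data were messenger RNA sequencing of 15 libraries, 3 in each of 5 groups, all from bone marrow primary cells. The CAR group had the genotype CAR expression and was CAR treated; CAR is short for chimeric antigen receptor, a synthetic receptor that directs an immune cell to a target. The control-CAR group had the genotype Control-CAR expression and was Control-CAR treated. Hoxb8 macrophages, BMDM (bone marrow-derived macrophages) and progenitor cells were wild type and untreated. Hoxb8 is a homeobox transcription factor whose enforced expression holds myeloid progenitors in a dividing state. The labels state no promoter, target antigen, strain or age. They also do not say whether replicate libraries are separate cultures or mice, so p-values measure the spread between libraries, which may be technical.

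When a myeloid progenitor becomes a macrophage it leaves the cell cycle, silences transcription factors of the stem and progenitor state and opens macrophage enhancers. Hlf, a PAR-type basic leucine zipper factor, is a widely used marker of haematopoietic stem cells, and Dnmt3b, a de novo DNA methyltransferase, is active in stem cells of many tissues. Most of the other genes are better known from elsewhere. Adgrl4 is an adhesion receptor of endothelium, F2rl3 is the thrombin receptor PAR4 of platelets, Rec8 is a cohesin subunit of meiosis, and Insm1 and Nefh are known from neuroendocrine cells and neurons.

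The labelled cell types were checked against marker genes. Of 10 progenitor markers, 3 had an FPKM of at least 10 in CAR libraries, 1 in control-CAR libraries, 1 in Hoxb8 macrophages and 6 in BMDM, against all 10 in progenitors. Of 10 macrophage markers, 7 reached that level in CAR, control-CAR and Hoxb8 macrophages and 8 in BMDM, against 5 in progenitors, while Mertk was under FPKM 1 in every CAR, control-CAR and Hoxb8 macrophage library. Marker lists of other cells also differed between groups. The 8 mast cell and basophil markers summed to FPKM 3647 to 3871 in CAR libraries, against 421 to 472 in control-CAR libraries, 419 to 430 in Hoxb8 macrophages, 302 to 321 in BMDM and 1630 to 1750 in progenitors. The 7 neutrophil markers summed to 1234 to 1478 in Hoxb8 macrophages, against 4795 to 11239 in BMDM. The 6 B cell markers summed to 30.3 to 55.1 in BMDM and to at most 0.62 in the other groups. Depth was 16962839 to 19221681 estimated counts per library.

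The promoters of the 4 highest of these genes with a RefSeq promoter entry show how unlike each other their start sites are. Each line gives the 200 bases before the listed start in GRCm38.p6, read 5′ to 3′ on the gene's strand, with every CpG dinucleotide in capitals. For Dnmt3b the promoter entry uses a later start than the gene record, so the last 38 bases shown lie inside the gene.
Adgrl4, chr3:151437682-151437881, plus strand: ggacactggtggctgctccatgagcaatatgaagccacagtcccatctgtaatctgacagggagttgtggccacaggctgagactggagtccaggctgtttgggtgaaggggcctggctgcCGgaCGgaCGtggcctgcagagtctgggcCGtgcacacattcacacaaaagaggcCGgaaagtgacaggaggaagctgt
Hlf, chr11:90390918-90391117, minus strand: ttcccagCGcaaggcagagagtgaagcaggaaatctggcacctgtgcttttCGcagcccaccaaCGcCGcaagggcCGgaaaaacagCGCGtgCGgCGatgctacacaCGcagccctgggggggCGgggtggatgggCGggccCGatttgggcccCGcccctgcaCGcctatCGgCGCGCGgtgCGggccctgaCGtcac
F2rl3, chr8:72761459-72761658, plus strand: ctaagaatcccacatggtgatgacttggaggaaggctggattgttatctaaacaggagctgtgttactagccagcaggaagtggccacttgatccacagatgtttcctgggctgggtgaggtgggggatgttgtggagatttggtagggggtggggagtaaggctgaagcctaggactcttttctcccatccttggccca
Dnmt3b, chr2:153649249-153649448, plus strand: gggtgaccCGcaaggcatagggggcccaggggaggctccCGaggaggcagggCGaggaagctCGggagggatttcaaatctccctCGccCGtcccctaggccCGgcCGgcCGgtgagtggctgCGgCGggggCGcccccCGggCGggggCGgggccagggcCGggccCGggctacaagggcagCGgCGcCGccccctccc

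These stretches hold 5 CpG sites for Adgrl4, 21 for Hlf, 0 for F2rl3 and 20 for Dnmt3b. Of the 25 genes, 18 had a promoter entry of 250 bases before to 50 after the start. Among those 18, 6 promoters (33.3%) were CpG-rich, taken as over 50% G and C with a CpG count over 0.6 of that given by base composition: Hlf, Dnmt3b, Limch1, Marveld2, Rec8 and Kcnk12. The share was 76.9% among the 5547 genes with a promoter entry and FPKM of at least 10 in every progenitor library, and 33.9% among all 27025 promoters. The median of that CpG ratio was 0.499 for the 18 genes, 0.815 for the 5547 genes and 0.389 for all promoters. The share of CpG-rich promoters among the genes lost in every macrophage group was thus closer to that of all promoters than to that of genes progenitors express, which describes 18 promoters and carries no test.

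Short motifs were counted on both strands of the same promoters. GATAA, the core bound by GATA factors, occurred in 4 of 18 (22.2%), against 15.02% of the 5547 genes and 25.8% of all promoters. GGAAGT, an ETS core, occurred in 3 of 18 (16.7%), against 32.5% and 24.1% in those sets. TGTGGT, the RUNX core, occurred in 2 of 18 (11.1%), against 12.1% and 16.9%. CCAAT occurred in 7 of 18 (38.9%), against 39.0% and 37.9%, and TATAAA in 4 of 18 (22.2%), against 6.15% and 14.2%. TTANNTAA, part of the palindrome read by PAR-type and related leucine zipper factors, was in 5 of 18 (27.8%: F2rl3, H2bc12, Marveld2, Ptgds and Tpd52l1), against 3.44% and 6.08%, and the Hlf promoter did not hold it. TTANNTAA and TATAAA were both in the promoters of H2bc12 and Marveld2. These are counts of letters in a window, not of bound sites.

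In progenitors the 25 genes ran in mean FPKM from 10.6 for Auts2 to 179 for Glb1l2, with a median of 17.2, against a median of 31.7 for all 6778 genes at or above FPKM 10 there. Their spread between the 3 progenitor libraries was small, with a median coefficient of variation of 4.08%, against 3.39% for the 6778 genes. Summed over the 25 genes, FPKM was 4.47 to 6.89 in the macrophage libraries, against 659 to 660 in the progenitor libraries. Lost is a matter of degree, since 16 of the 25 genes had a count above 0 in all 3 CAR libraries, 18 in control-CAR, 17 in Hoxb8 macrophages and 18 in BMDM. The highest of the 4 macrophage group means, as a percentage of the progenitor mean, had a median of 2.04% and reached 7.81% for Rapgef3 in CAR libraries, and 7 genes stayed under 1%. In bulk RNA, fewer cells that express a gene and less of its RNA per cell cannot be told apart.

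**Figure D1:**
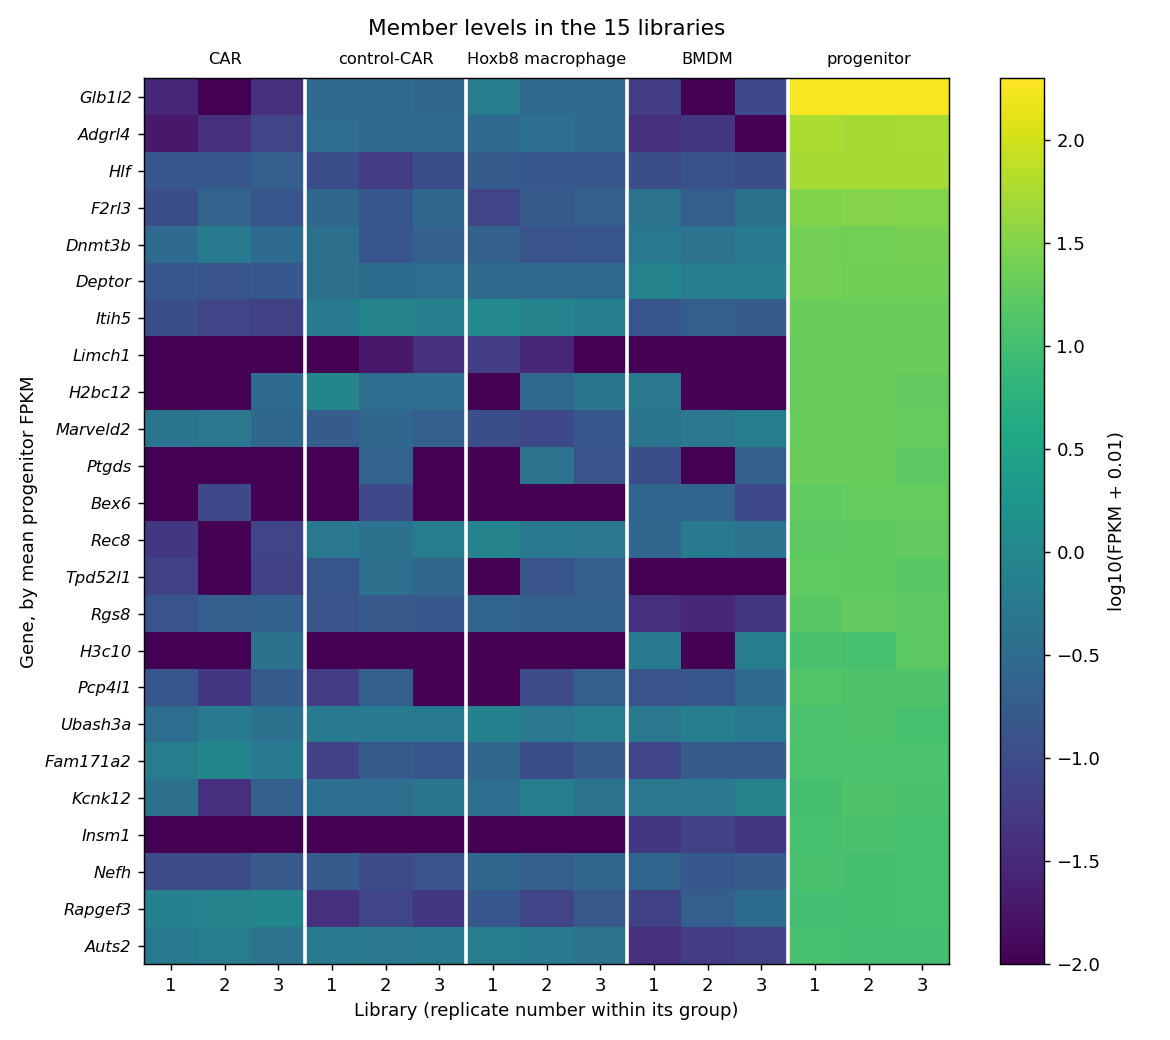
The heat map shows log10(FPKM + 0.01) of 24 of the 25 genes (rows, ordered by mean progenitor FPKM) in the 15 libraries (columns, 3 per group). The 3 progenitor columns are bright for each gene, the 12 macrophage columns are dark, and the rows of Limch1 and Insm1 are among the darkest, while Itih5, Rapgef3, Fam171a2 and Ubash3a keep levels nearer to FPKM 1.

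Among regulators of transcription, Hlf was the most abundant. Its FPKM was 0.14, 0.14 and 0.18 in CAR libraries, 0.1, 0.05 and 0.1 in control-CAR libraries, 0.17, 0.14 and 0.14 in Hoxb8 macrophages and 0.1, 0.11 and 0.1 in BMDM, against 52.5, 53.1 and 52.6 in progenitors. The progenitor libraries differed by a coefficient of variation of 0.594%, and the macrophage level was 0.158% to 0.291% of the progenitor mean. Of 37 stem and progenitor transcription factors listed for this work, 17 reached FPKM 10 in progenitors. Hlf was the only one of these 17 that fell under FPKM 1 in all 4 macrophage groups. The share was 0.398% over all 6778 genes at FPKM 10 in progenitors, and 1 gene does not describe the list. Meis1, a homeobox partner of Hox proteins, came close, with a mean of 0.85 in CAR libraries, 1.08 in control-CAR libraries, 0.74 in Hoxb8 macrophages and 1.003 in BMDM, against 37.8 in progenitors. Gfi1, a transcriptional repressor needed for neutrophil differentiation, averaged 0.85 in CAR libraries, 0.35 in control-CAR libraries and 0.27 in Hoxb8 macrophages, but 2.52 in BMDM, against 64.2 in progenitors. Gata2, a stem and mast cell factor, stayed at 60.2 in CAR libraries, 10.4 in control-CAR libraries, 11.6 in Hoxb8 macrophages and 32.8 in BMDM, against 77.7 in progenitors.

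Hlf has close relatives, and their levels differed from its own. Dbp, also a PAR-type factor, was low in progenitors and lower still in each macrophage group mean. It averaged FPKM 1.07 in CAR libraries, 1.41 in control-CAR libraries, 1.84 in Hoxb8 macrophages and 1.38 in BMDM, against 4.71 in progenitors. Tef, another PAR-type factor, averaged FPKM 11.1 in CAR libraries, 11.3 in control-CAR libraries, 11.3 in Hoxb8 macrophages and 8.26 in BMDM, against 15.8 in progenitors. Nfil3, a repressor that binds the same DNA element, averaged 59.7, 97.3, 106 and 70.6 in CAR, control-CAR, Hoxb8 macrophage and BMDM libraries, against 5.04 in progenitors. Tef thus kept over FPKM 8 in macrophages and Nfil3 was higher in every macrophage group mean than in progenitors.

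Insm1, a zinc-finger factor of neuroendocrine and pancreatic endocrine cells, was at a count of 0 in all 9 CAR, control-CAR and Hoxb8 macrophage libraries. It had 2, 3 and 2 counts in BMDM, against 537, 575 and 526 counts in progenitors, where its FPKM was 11.3, 11.8 and 11.1. Auts2, a nuclear protein found with Polycomb proteins in neurons, was not lost to the same degree everywhere. Its FPKM was 0.54, 0.65 and 0.42 in CAR libraries, 0.6, 0.52 and 0.54 in control-CAR libraries and 0.62, 0.56 and 0.42 in Hoxb8 macrophages, but 0.03, 0.05 and 0.06 in BMDM, against 11.1, 10.3 and 10.4 in progenitors. The first 3 macrophage groups overlapped, and all 3 BMDM libraries lay below each of those 9 libraries.

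Dnmt3b had an FPKM of 0.31, 0.58 and 0.31 in CAR libraries, 0.38, 0.13 and 0.2 in control-CAR libraries, 0.2, 0.12 and 0.13 in Hoxb8 macrophages and 0.54, 0.43 and 0.59 in BMDM, against 25.3, 24.5 and 26.6 in progenitors. The CAR values overlapped both control-CAR and BMDM, and Hoxb8 macrophages lay below BMDM. Dnmt1, the maintenance methyltransferase, averaged 29.0, 15.02, 14.6 and 28.6 in CAR, control-CAR, Hoxb8 macrophage and BMDM libraries, against 174 in progenitors. Dnmt3a, the other de novo enzyme, averaged 4.55, 6.19, 6.22 and 7.82 in the same macrophage groups, against 10.8 in progenitors. Dnmt3l, a catalytically inactive partner of the de novo enzymes, averaged 6.81, 17.6, 18.8 and 7.19 in those groups, against 0.46 in progenitors. Within this enzyme family only Dnmt3b was under FPKM 1 in all macrophage libraries after at least FPKM 10 in all progenitor libraries, and Dnmt3l was higher in each macrophage group mean than in progenitors.

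Rec8, the kleisin subunit that replaces Rad21 in meiotic cohesin, had an FPKM of 0.04, 0 and 0.07 in CAR libraries, 0.52, 0.41 and 0.64 in control-CAR libraries, 0.82, 0.53 and 0.49 in Hoxb8 macrophages and 0.25, 0.58 and 0.42 in BMDM, against 16.4, 17.0 and 18.3 in progenitors. The 3 CAR libraries lay below the other 9 macrophage libraries. Rad21, its mitotic counterpart, averaged 69.6 in CAR libraries, 65.2 in control-CAR libraries, 67.7 in Hoxb8 macrophages and 52.5 in BMDM, against 111 in progenitors.

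Both histone genes of the set, H2bc12 and H3c10, rest on few reads. H2bc12 had at most 2.72 estimated counts in a macrophage library, against 61.7 to 72.4 in progenitors. H3c10 had at most 2.42 in a macrophage library, against 35.1, 37.0 and 52.1 counts in progenitors, and its coefficient of variation there was the highest of the 25 genes at 22.3%. Replication-dependent histone genes have near-identical copies and mostly lack a poly(A) tail, so the split of reads between copies and their capture by oligo(dT) make both values uncertain. Of 74 histone genes measured, 18 reached FPKM 10 in all progenitor libraries and 2 of those, H2bc12 and H3c10, were under 1 in all macrophage libraries. Over all 6778 genes at FPKM 10 in progenitors the share was 0.398%, and these 2 uncertain values do not describe the histone genes. H2bc4 went the other way, with a mean FPKM of 269 in CAR libraries, 157 in control-CAR libraries, 191 in Hoxb8 macrophages and 73.9 in BMDM, against 15.7 in progenitors.

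Among receptors and signalling proteins, Adgrl4 was highest in progenitors. Its FPKM was 0.01, 0.03 and 0.07 in CAR libraries, 0.33, 0.28 and 0.31 in control-CAR libraries, 0.29, 0.36 and 0.31 in Hoxb8 macrophages and 0.03, 0.04 and 0 in BMDM, against 58.7, 52.6 and 55.2 in progenitors. CAR and BMDM libraries overlapped at the bottom, and control-CAR and Hoxb8 macrophage libraries overlapped above them. Its relative Adgrl2, a latrophilin, averaged 20.9 in CAR libraries, 0.30 in control-CAR libraries, 0.20 in Hoxb8 macrophages and 58.8 in BMDM, against 0.023 in progenitors, so Adgrl2 was high in the 2 groups where Adgrl4 was lowest. Another latrophilin, Adgrl1, was lower in macrophages than in progenitors, as Adgrl4 was. It averaged 2.11 in CAR libraries, 0.073 in control-CAR libraries, 0.09 in Hoxb8 macrophages and 0.25 in BMDM, against 13.3 in progenitors.

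F2rl3 had an FPKM of 0.1, 0.22 and 0.13 in CAR libraries, 0.25, 0.13 and 0.27 in control-CAR libraries, 0.07, 0.16 and 0.2 in Hoxb8 macrophages and 0.43, 0.19 and 0.4 in BMDM, against 30.9, 33.6 and 31.2 in progenitors. The 4 macrophage groups overlapped. Of its relatives, F2r, the main thrombin receptor PAR1, averaged 41.8 in CAR libraries, 1.34 in control-CAR libraries, 0.98 in Hoxb8 macrophages and 3.45 in BMDM, against 3.49 in progenitors. F2rl2, the thrombin cofactor receptor PAR3, averaged 4.68, 23.1, 21.7 and 9.16 in the same macrophage groups, against 19.1 in progenitors.

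Deptor, an inhibitory subunit of both mTOR complexes, had an FPKM of 0.14, 0.12 and 0.14 in CAR libraries, 0.37, 0.32 and 0.33 in control-CAR libraries, 0.3, 0.28 and 0.29 in Hoxb8 macrophages and 0.82, 0.65 and 0.68 in BMDM, against 25.1, 23.3 and 23.4 in progenitors. These 4 macrophage groups did not overlap, with CAR libraries lowest and BMDM highest. Of the other mTOR genes looked up, all but Prr5 kept a mean above FPKM 1 in each group. Prr5 averaged 0.48 in CAR libraries, 2.75 in BMDM and 0 in control-CAR libraries, Hoxb8 macrophages and progenitors. Mtor, the kinase, averaged 9.71, 6.34, 5.62 and 7.90 in CAR, control-CAR, Hoxb8 macrophage and BMDM libraries, against 12.4 in progenitors. Rictor, which defines mTOR complex 2, averaged 6.61, 7.46, 6.95 and 3.65 in those groups, against 7.76 in progenitors.

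Rapgef3 encodes Epac1, a cAMP-activated exchange factor for the GTPase Rap. Its FPKM was 0.78, 0.83 and 0.92 in CAR libraries, 0.03, 0.07 and 0.04 in control-CAR libraries, 0.14, 0.07 and 0.15 in Hoxb8 macrophages and 0.06, 0.18 and 0.32 in BMDM, against 10.5, 10.8 and 11.1 in progenitors. All 3 CAR libraries lay above the other 9 macrophage libraries and 1 of them was the second closest to the limit of FPKM 1 among all values of the 25 genes. Rapgef4, the other Epac gene, had means of at most 0.033 in every group.

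Rgs8, which speeds GTP hydrolysis by Gα subunits, had an FPKM of 0.12, 0.18 and 0.21 in CAR libraries, 0.12, 0.15 and 0.14 in control-CAR libraries, 0.23, 0.21 and 0.21 in Hoxb8 macrophages and 0.03, 0.02 and 0.04 in BMDM, against 15.9, 18.3 and 16.5 in progenitors. The 3 BMDM libraries were below the other 9. Rgs16, the measured gene next to it on one side on chromosome 1, averaged 20.3, 11.7, 11.2 and 11.3 in CAR, control-CAR, Hoxb8 macrophage and BMDM libraries, against 6.63 in progenitors. Ubash3a, a suppressor of T cell receptor signalling, kept a low level in each group, at FPKM 0.34 to 0.76 in the 12 macrophage libraries, against 12.2, 12.6 and 11.4 in progenitors. Its paralogue Ubash3b averaged 28.7 in CAR libraries, 31.8 in control-CAR libraries, 28.8 in Hoxb8 macrophages and 26.6 in BMDM, against 22.4 in progenitors.

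Marveld2, Fam171a2 and Kcnk12 encode membrane or junction proteins, and Tpd52l1 a coiled-coil protein of the tumour protein D52 family. Marveld2, tricellulin of tricellular junctions, had an FPKM of 0.44, 0.49 and 0.27 in CAR libraries, 0.17, 0.26 and 0.18 in control-CAR libraries, 0.1, 0.08 and 0.14 in Hoxb8 macrophages and 0.45, 0.49 and 0.62 in BMDM, against 20.02, 20.2 and 18.9 in progenitors. Hoxb8 macrophages were lowest without overlap with any other group. Fam171a2, a membrane protein, had an FPKM of 0.64, 0.89 and 0.61 in CAR libraries, 0.06, 0.16 and 0.14 in control-CAR libraries, 0.25, 0.1 and 0.16 in Hoxb8 macrophages and 0.07, 0.17 and 0.17 in BMDM, against 12.1, 12.1 and 11.9 in progenitors. As with Rapgef3, the 3 CAR libraries lay above all other macrophage libraries.

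Kcnk12, a potassium channel subunit, was at FPKM 0.38, 0.03 and 0.2 in CAR libraries, 0.36, 0.34 and 0.48 in control-CAR libraries, 0.35, 0.63 and 0.42 in Hoxb8 macrophages and 0.51, 0.52 and 0.82 in BMDM, against 10.8, 13.1 and 11.8 in progenitors. CAR libraries spread widely and overlapped control-CAR. Tpd52l1 had at most 6 counts in a macrophage library and 0 in all 3 BMDM libraries, against 255 to 283 in progenitors, while its relative Tpd52 averaged FPKM 53.0, 136, 143 and 113 in CAR, control-CAR, Hoxb8 macrophage and BMDM libraries, against 13.9 in progenitors.

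Among enzymes, secreted proteins and cytoskeletal proteins stood Glb1l2, a protein related to lysosomal β-galactosidase and the most abundant of the 25 genes. Its FPKM was 0.02, 0 and 0.03 in CAR libraries, 0.28, 0.31 and 0.25 in control-CAR libraries, 0.63, 0.28 and 0.3 in Hoxb8 macrophages and 0.05, 0 and 0.08 in BMDM, against 178, 178 and 182 in progenitors. Its counts were 3 in all over the CAR libraries and at most 37 in any macrophage library, against 10581 to 10812 per progenitor library. It ranked 529 of 17030 genes in progenitors. Glb1, the lysosomal enzyme itself, averaged 207, 174, 164 and 113 in CAR, control-CAR, Hoxb8 macrophage and BMDM libraries, against 98.0 in progenitors. Glb1l3, the neighbouring gene 11480 bases away on chromosome 9, was listed at FPKM 0 in all 12 macrophage libraries, against a mean of 7.79 in progenitors, which is under the limit of 10.

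Itih5, a heavy chain that binds hyaluronan in the extracellular matrix, had an FPKM of 0.1, 0.07 and 0.06 in CAR libraries, 0.58, 0.82 and 0.73 in control-CAR libraries, 0.99, 0.82 and 0.72 in Hoxb8 macrophages and 0.13, 0.18 and 0.16 in BMDM, against 21.2, 21.1 and 21.6 in progenitors. Control-CAR and Hoxb8 macrophages overlapped and lay above BMDM, and BMDM lay above CAR libraries. Itih1 averaged 15.1, 31.1, 29.8 and 7.86 in CAR, control-CAR, Hoxb8 macrophage and BMDM libraries and was listed at 0 in progenitors. Ptgds, a prostaglandin D2 synthase, had at most 4 counts in a macrophage library, against 178, 189 and 145 in progenitors. Ptges, the inducible prostaglandin E synthase, averaged 64.8, 31.2, 29.9 and 398 in those macrophage groups, against 0.15 in progenitors.

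Limch1, an activator of non-muscle myosin II, had no counts in any CAR or BMDM library, 0, 1 and 3 in control-CAR libraries and 5, 2 and 0 in Hoxb8 macrophages, against 2007, 2096 and 2085 in progenitors. Bex6, of the brain-expressed X-linked protein family although it lies on chromosome 16, had at most 3 counts in a macrophage library, against 209 to 233 in progenitors. Pcp4l1, a small calmodulin-regulator-like protein known from Purkinje cells, had at most 7, against 290 to 295. Nefh, the heavy neurofilament subunit, ranged from FPKM 0.09 to 0.26 over the 12 macrophage libraries, against 11.4, 10.9 and 11.01 in progenitors. Its 3 Hoxb8 macrophage libraries lay above all CAR and control-CAR libraries and overlapped BMDM.

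**Figure D2:**
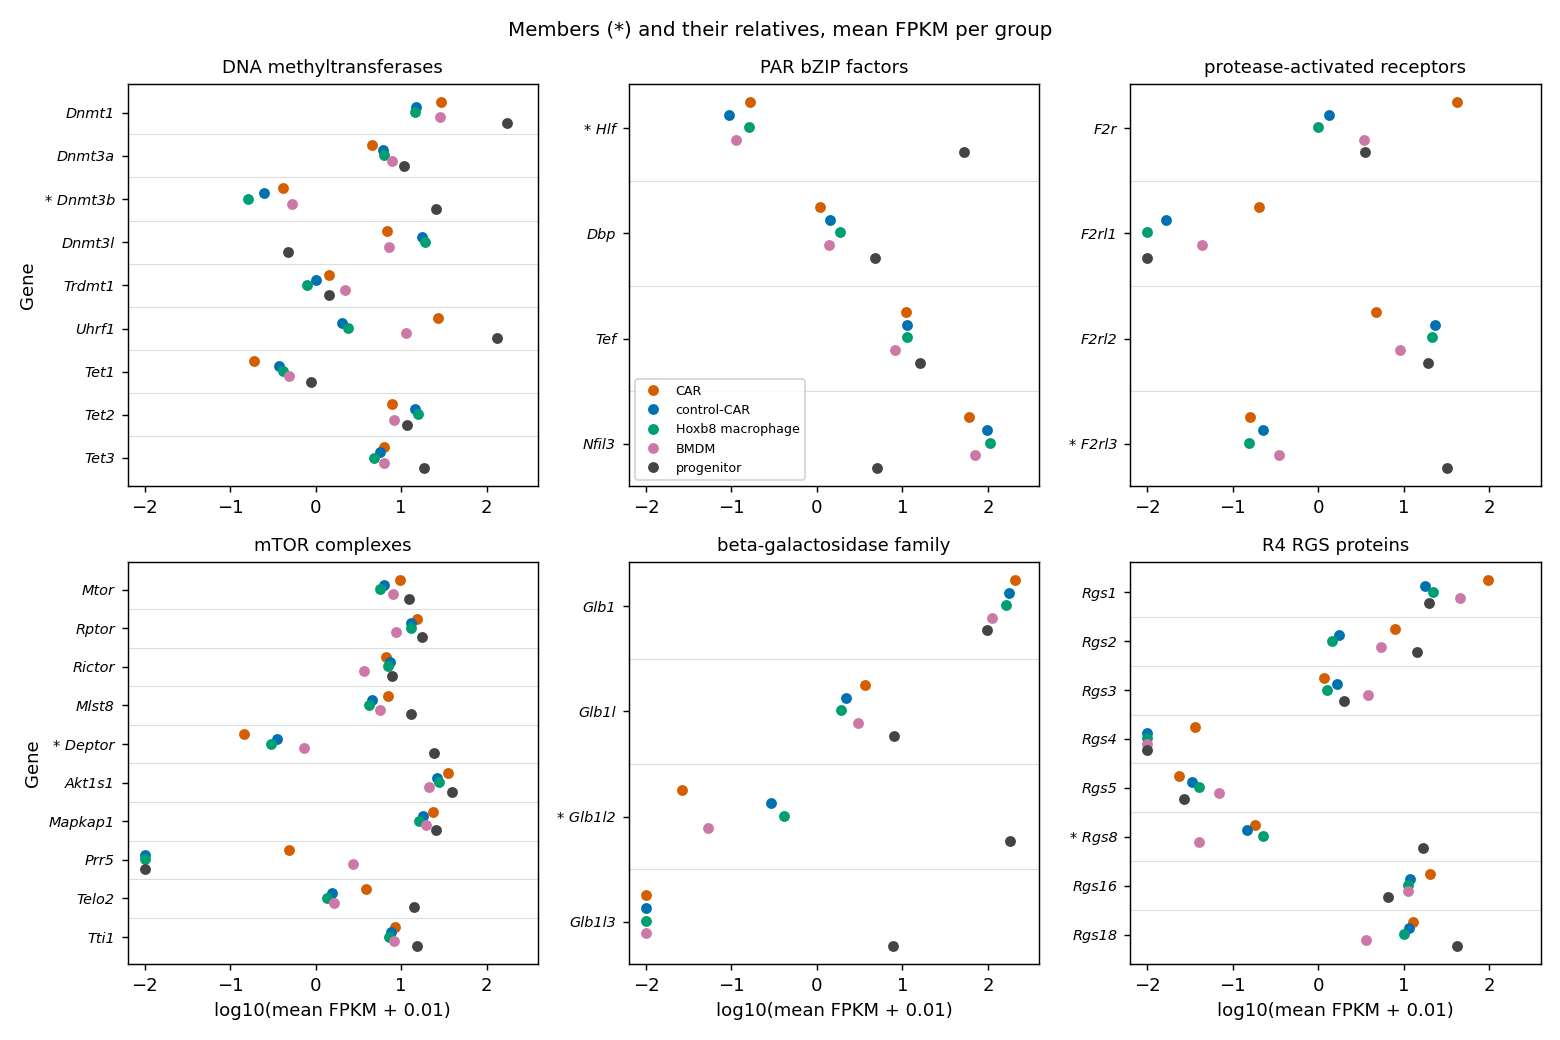
Each panel shows mean FPKM (n = 3 libraries) on a log10 axis, as log10(mean FPKM + 0.01), for a member marked by an asterisk and its relatives, with 1 colour per group. The members are far to the left in the 4 macrophage groups and to the right in progenitors, whereas relatives such as Tef, Dnmt3a, Mtor, Glb1 and Rgs18 stay within a narrower span.

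Relatives were looked up after the 25 genes were known, for 18 of them in 18 families with 65 measured relatives. Of those relatives 27 reached FPKM 10 in all progenitor libraries. That 0 of the 27 were under 1 in all macrophage libraries was fixed by the rule, since such a relative would be among the 25 genes. A further 20 relatives were under FPKM 1 in all 15 libraries. The 25 genes lay on 14 chromosomes, with 4 on chromosome 2 and 3 each on chromosomes 11 and 13, and the closest pair, H3c10 and H2bc12, was 317706 bases apart. Of the 50 nearest measured neighbours, 22 reached FPKM 10 in progenitors and 0 of those were under 1 in all macrophage libraries. Among all 6778 genes at FPKM 10 in progenitors that share was 0.398%, so 0 of 22 does not set these neighbours apart. Fam171a2 lies 172 bases from Grn, the progranulin gene, which averaged 759 in CAR libraries, 551 in control-CAR libraries, 553 in Hoxb8 macrophages and 871 in BMDM, against 451 in progenitors. Marveld2 lies 193 bases from Rad17, a checkpoint gene, which averaged 12.7, 9.87, 8.88 and 9.22 in those macrophage groups, against 24.5 in progenitors. Median gene length was 23650 bases, against 21163 for all genes at FPKM 10 in progenitors.

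Other gene lists of the progenitor state were set beside these genes. Of 17 azurophil granule and granulocyte-monocyte progenitor genes at FPKM 10 in progenitors, 0 were under 1 in all 4 macrophage groups. For all 6778 genes at FPKM 10 in progenitors that share was 0.398%, so 0 of 17 does not set this list apart. Of 21 S phase genes, 0 were under 1 in CAR libraries or BMDM, 5 in control-CAR libraries and 4 in Hoxb8 macrophages. Of 20 G2 and M phase genes, 0 were under 1 in CAR libraries or BMDM, 8 in control-CAR libraries and 7 in Hoxb8 macrophages. By group, the share of the 6778 genes was 0.90% in CAR libraries, 1.02% in BMDM, 3.20% in control-CAR libraries and 3.26% in Hoxb8 macrophages. The counts of 0 in CAR libraries and BMDM thus do not set these lists apart. The progenitor surface list had 1 such gene among 15 in all 4 groups, Cd27, a receptor of the tumour necrosis factor receptor family that the rule left out by its symbol. Its mean FPKM was 0 in CAR libraries, 0.02 in control-CAR libraries, 0 in Hoxb8 macrophages and 0.15 in BMDM, against 33.9 in progenitors.

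The 27 genes that met the limits were 0.398% of the 6778 genes at FPKM 10 in progenitors. Taken group by group, 61 of the 6778 genes (0.90%) were under FPKM 1 in all CAR libraries, 217 (3.20%) in control-CAR libraries, 221 (3.26%) in Hoxb8 macrophages and 69 (1.02%) in BMDM. In exactly 1 group there were 47 such genes, in 2 groups 148, in 3 groups 39 and in all 4 groups 27. A gene lost in every group had to be among the 61 of CAR libraries and the 69 of BMDM, the groups with the fewest such genes. Of the genes lost in exactly 3 groups, CAR libraries were the remaining group for 23, BMDM for 16 and either other group for 0. In the remaining group 1 library at FPKM 1 or more was enough, so its level can be low. None of the 23 reached FPKM 10 in all 3 CAR libraries, and 3 of the 16 did in all 3 BMDM libraries.

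**Figure D3:**
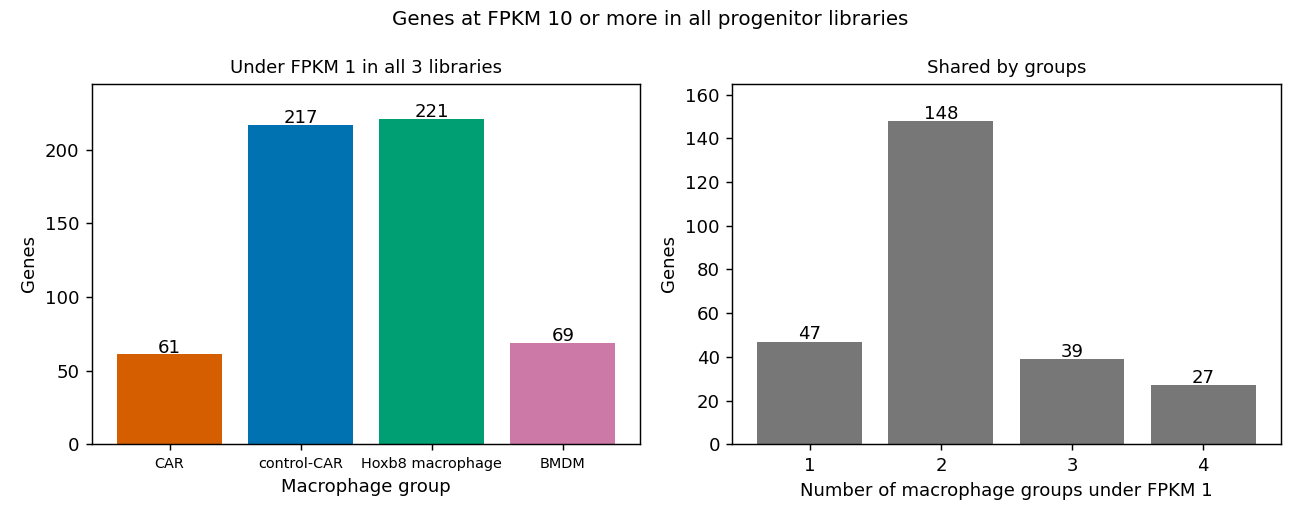
The left panel counts, of the 6778 genes at FPKM 10 or more in all progenitor libraries, those under FPKM 1 in all 3 libraries of each macrophage group. The right panel counts genes by the number of macrophage groups in which they were under the limit, with 148 genes in exactly 2 groups and 27 in all 4.

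The limits themselves fall between near values. Just inside the macrophage limit were Itih5 at FPKM 0.99 in 1 Hoxb8 macrophage library, Rapgef3 at 0.92 and Fam171a2 at 0.89 in CAR libraries. Just outside were Cxxc5 at 1.11 in 1 BMDM library, Lpar2 at 1.14 in 1 CAR library and Heg1 at 1.23 in 1 BMDM library. On the progenitor side the lowest value was 10.3 for Auts2, 10.5 for Rapgef3 and 10.8 for Kcnk12 just inside, and 9.70 for Mdga1, 9.13 for Far2 and 9.09 for Klhl23 just outside.

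Levels between the macrophage groups are another contrast than the one that chose the genes, although every value is held under FPKM 1. edgeR's quasi-likelihood test was run over the 12 macrophage libraries on 12912 genes with at least 10 counts in at least 3 of them, with Benjamini-Hochberg adjustment over all 12912. Of the 25 genes, 15 passed that filter. The 10 that did not, among them F2rl3, Limch1, H2bc12, Ptgds, Bex6, Tpd52l1, H3c10, Pcp4l1 and Insm1, have no test. Rapgef3 and Fam171a2 passed only through the CAR libraries, where they are high, and Glb1l2 and Adgrl4 only through control-CAR libraries and Hoxb8 macrophages. Such genes had to differ between groups, so their folds and p-values below are a description and not support for a change. The counts and medians below likewise describe the 15, support nothing by themselves and do not stand for all 25. The comparison of control-CAR libraries with Hoxb8 macrophages shares its control-CAR libraries with the comparison before it and its Hoxb8 macrophage libraries with the comparison after it.

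CAR libraries against control-CAR libraries compare cells labelled CAR expression with cells labelled Control-CAR expression. The labels do not say whether both groups share an origin, so CAR expression cannot be told apart from other differences between them. Rapgef3 and Fam171a2 were higher in CAR libraries, and Glb1l2, Rec8, Itih5, Adgrl4, Deptor, Kcnk12 and Ubash3a were lower. These were 9 of the 15 tested genes (60%), beside 77.3% of all genes tested, so the share called was not above that of all genes. By direction, 2 of 15 were higher, both of them genes that passed the filter only through CAR libraries, beside 42% of all genes, and 7 of 15 were lower, beside 35.3%. The median log2 change was −0.50 for the 15 genes and 0.08 for all genes tested.

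Rapgef3 rose 16.1-fold (log2 change 4.01, SE 0.47, adjusted p = 1.06e-06 in edgeR), with 46, 51 and 57 counts in CAR libraries, against 1, 4 and 2 in control-CAR libraries. Fam171a2 rose 4.58-fold (log2 change 2.19, SE 0.36, edgeR adjusted p = 4.88e-05), with 32, 46 and 31 counts in CAR libraries, against 3, 8 and 7 in control-CAR libraries. Neither pair of groups overlapped, and the Rapgef3 fold was 24.5 without control-CAR replicate 2. Both genes entered the test only through their CAR counts, so these p-values describe the difference and do not support it. Itih5 fell by 3.53 on the log2 scale (SE 0.24, edgeR adjusted p = 2.15e-09), with 14, 10 and 8 counts in CAR libraries, against 75, 112 and 100 in control-CAR libraries. Adgrl4 fell by 3.24 on the log2 scale (SE 0.44, edgeR adjusted p = 6.22e-06), with 1, 2 and 5 counts in CAR libraries, against 21, 19 and 21 in control-CAR libraries, and the log2 change was −4.00 without CAR replicate 3. Deptor fell by 1.69 on the log2 scale (SE 0.18, edgeR adjusted p = 5.26e-07), with 21, 18 and 21 counts in CAR libraries, against 52, 48 and 49 in control-CAR libraries.

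Glb1l2 and Rec8 were called too but had only 3 counts each over the CAR libraries. Glb1l2 had 1, 0 and 2 counts in CAR libraries, against 16, 19 and 15 in control-CAR libraries (edgeR adjusted p = 5.3e-05). Per library total its CAR level was 5.81% of the control-CAR level, with an exact 95% interval of 1.16% to 18.0% that covers counting error only. Rec8 had 1, 0 and 2 counts in CAR libraries, against 15, 13 and 19 in control-CAR libraries (edgeR adjusted p = 1.03e-05), and its CAR level was 6.18% of the control-CAR level, with an interval of 1.23% to 19.2%. Their fitted log2 changes depend on the prior count and are not given as sizes, and without CAR replicate 3 a single CAR count remains for each.

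The calls of Ubash3a and Kcnk12 were close to the threshold. Ubash3a fell by 0.68 on the log2 scale (SE 0.25, edgeR adjusted p = 0.0199), and its groups overlapped. Kcnk12 fell by 1.28 (SE 0.51, edgeR adjusted p = 0.0317), with 11, 1 and 6 counts in CAR libraries, against 10, 10 and 14 in control-CAR libraries. With library totals in place of TMM scaling, neither was called, with adjusted p = 0.209 for Ubash3a and 0.109 for Kcnk12, while Dnmt3b, Marveld2 and Hlf were called as higher, with adjusted p of 0.0366, 0.00867 and 0.0322. Library totals moved the median log2 change of all genes to 0.42. The log2 change of Kcnk12 was −2.03 without CAR replicate 1 (adjusted p = 0.00585). Kcnk12 was also not called without CAR replicate 2 (adjusted p = 0.133), CAR replicate 3 (0.0752) or control-CAR replicate 3 (0.106), and Ubash3a was not called without CAR replicate 1 (0.0772), CAR replicate 3 (0.0846) or control-CAR replicate 3 (0.051).

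The mast cell and basophil marker list moved with this comparison, with 8 of 8 markers at FPKM 10 or more in CAR libraries, against 4 of 8 in control-CAR libraries, and none at a count of 0 in either group. The fibroblast list summed to 45.7 to 46.9 in CAR libraries, against 0.85 to 1.24 in control-CAR libraries, where Sparc was at 0. The erythroid list summed to 63.3 to 74.2 in CAR libraries, against 1.62 to 3.54 in control-CAR libraries, with 1 of 6 markers at a count of 0 in CAR libraries and 2 of 6 in control-CAR libraries. The progenitor list summed to FPKM 222 to 237 in CAR libraries, against 24.9 to 26.8 in control-CAR libraries. Lower in summed FPKM in CAR libraries were the neutrophil list, at 196 to 230 against 1711 to 2092 in control-CAR libraries, the megakaryocyte list, at 350 to 363 against 815 to 861, and the macrophage list, at 10464 to 10829 against 21390 to 24143. Single megakaryocyte markers did not all follow their sum. Of 5, 2 were at FPKM 10 or more in CAR libraries, against 1 in control-CAR libraries. The part of these cells in the changes of Rapgef3, Fam171a2 and the other genes was not tested.

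Control-CAR libraries against Hoxb8 macrophages set Control-CAR expression beside wild-type cells, and none of the 15 tested genes was called. edgeR called 219 of all genes (1.7%), 0.318% higher and 1.38% lower. At an unadjusted p under 0.05, 5 of the 15 passed. The share of all genes tested that passed there was not counted, so these 5 do not set the 15 apart. DESeq2 called 0 of the 15, and the lowest adjusted p in edgeR was 0.168, for Nefh. The estimates ran from −1.57 for Rapgef3 (SE 0.67, edgeR adjusted p = 0.268) to 0.91 for Marveld2 (SE 0.39, edgeR adjusted p = 0.269). Deptor differed by a log2 change of 0.20 with SE 0.16 and Auts2 by 0.00 with SE 0.19. A miss of the threshold does not show equal levels, since several of these genes rest on under 20 counts per library.

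Hoxb8 macrophages against BMDM compare macrophages of the Hoxb8 group with those of bone marrow. Auts2, Adgrl4, Glb1l2, Rgs8, Itih5 and Hlf were higher in Hoxb8 macrophages, and Marveld2, Dnmt3b and Deptor were lower. These were again 9 of 15 (60%), beside 68.4% of all genes tested, with 6 higher beside 30.7% of all genes and 3 lower beside 37.7%. The median log2 change was 0.59 for the 15 genes and −0.05 for all genes tested, or −0.24 for all genes with library totals.

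Auts2 rose 12.5-fold (log2 change 3.65, SE 0.28, edgeR adjusted p = 1.33e-08), with 76, 71 and 52 counts in Hoxb8 macrophages, against 4, 7 and 8 in BMDM. Adgrl4 rose 14.7-fold (log2 change 3.88, SE 0.48, edgeR adjusted p = 3.24e-06), with 19, 25 and 21 counts in Hoxb8 macrophages, against 2, 3 and 0 in BMDM. Glb1l2 rose 10.5-fold (log2 change 3.39, SE 0.55, edgeR adjusted p = 5.36e-05), with 37, 17 and 18 counts in Hoxb8 macrophages, against 3, 0 and 5 in BMDM. None of these 3 pairs of groups overlapped. The folds of Adgrl4 and Glb1l2 rest on few BMDM counts and were 23.5 for Adgrl4 without BMDM replicate 2 and 17.7 for Glb1l2 without BMDM replicate 3. Rgs8 rose 7.69-fold (SE 0.36 on the log2 scale, edgeR adjusted p = 2.57e-06) and Itih5 6.19-fold (SE 0.21, edgeR adjusted p = 1.98e-08).

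In the other direction, Marveld2 fell by 2.07 on the log2 scale (SE 0.33, edgeR adjusted p = 3.9e-05), with 5, 4 and 7 counts in Hoxb8 macrophages, against 24, 26 and 33 in BMDM. Dnmt3b fell by 1.57 (SE 0.36, edgeR adjusted p = 0.00104), with 12, 8 and 9 counts in Hoxb8 macrophages, against 39, 29 and 38 in BMDM. Deptor fell by 1.13 (SE 0.15, edgeR adjusted p = 5.57e-06). Hlf was 1.79-fold higher (log2 change 0.84, SE 0.30, edgeR adjusted p = 0.0205), but this call was lost with DESeq2 (adjusted p = 0.106), with library totals (0.072), with limma on log2(FPKM + 1) (0.117) and without Hoxb8 macrophage replicate 1 (0.0775), BMDM replicate 1 (0.0508) or BMDM replicate 3 (0.0591). Of the neutrophil list, 5 of 7 markers were at FPKM 10 or more in Hoxb8 macrophages and 7 of 7 in BMDM, with none at a count of 0 in either group. Of the B cell list, 4 of 6 markers were at a count of 0 in Hoxb8 macrophages and 0 of 6 in BMDM. The megakaryocyte list summed to 834 to 915 in Hoxb8 macrophages, against 3343 to 3647 in BMDM, and the fibroblast list to 0.51 to 1.20 in Hoxb8 macrophages, against 14.4 to 16.1 in BMDM. The progenitor list summed to 25.1 to 27.98 in Hoxb8 macrophages, against 204 to 334 in BMDM. The part of these cells in the changes was not tested.

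**Figure D4:**
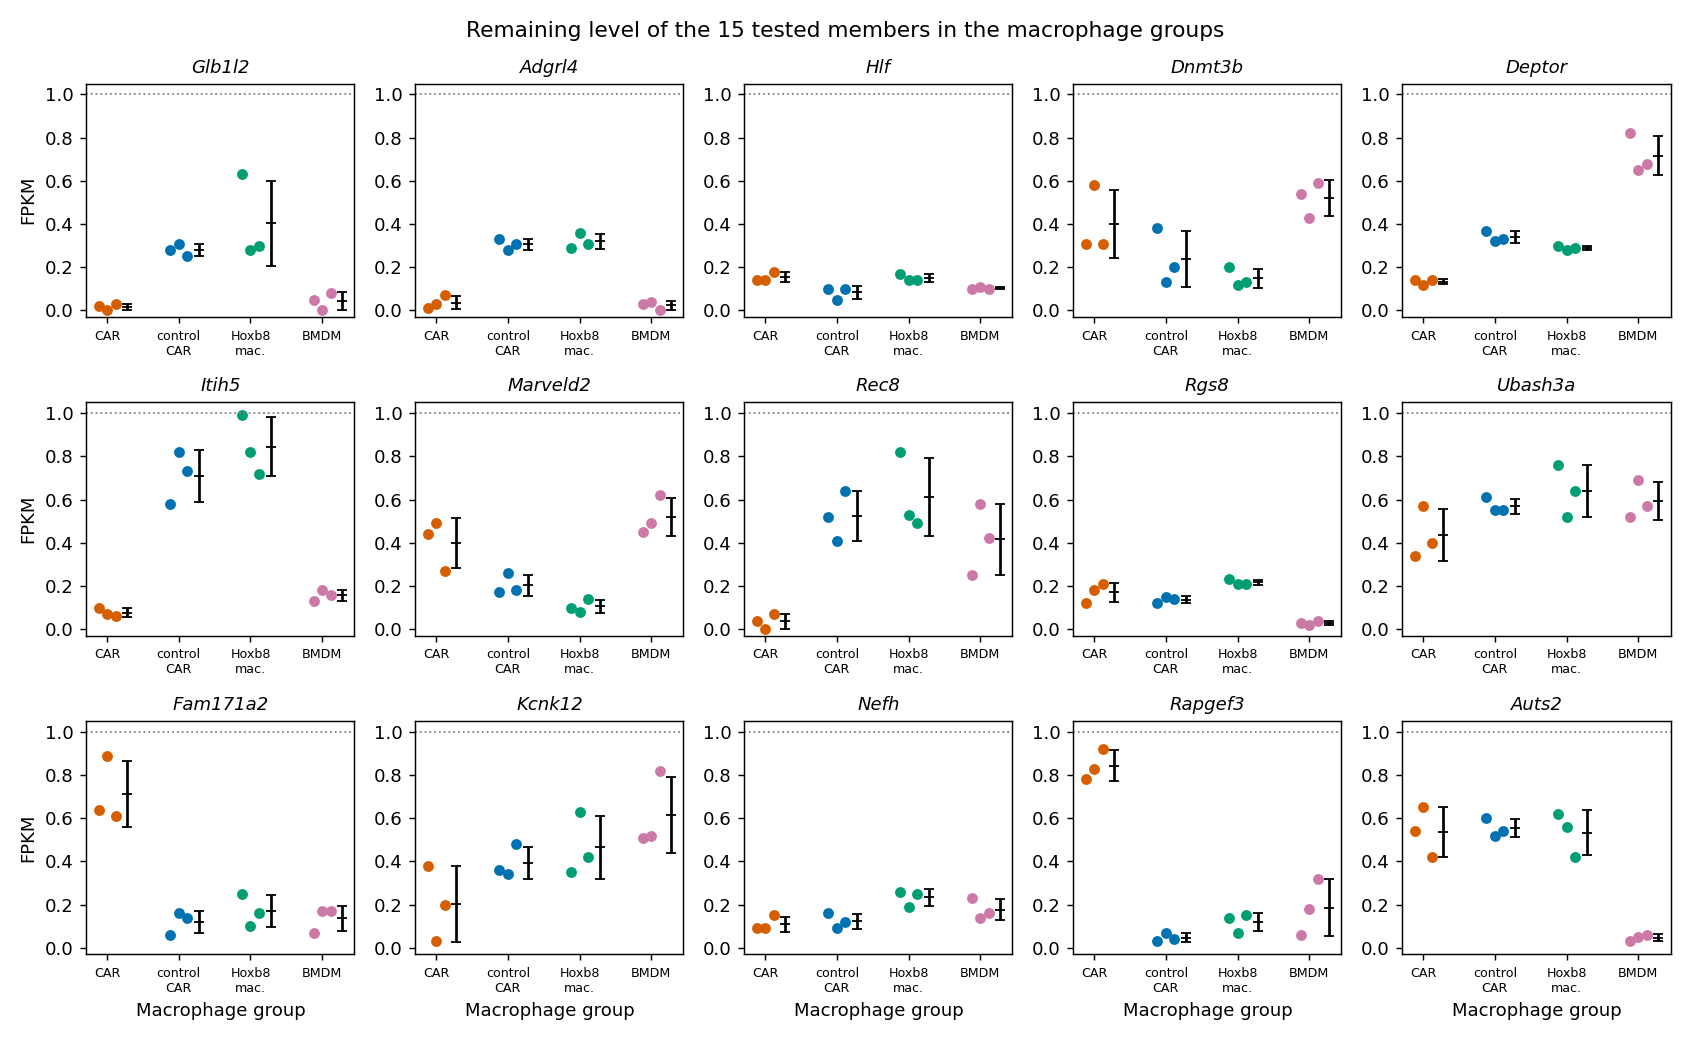
FPKM of the 15 tested genes in each macrophage library (points, 3 per group), with the group mean and SD beside them and the limit of FPKM 1 as a dotted line. CAR libraries are highest for Rapgef3 and Fam171a2, control-CAR and Hoxb8 macrophage libraries for Glb1l2, Adgrl4 and Itih5, and BMDM for Deptor, while BMDM is lowest for Auts2 and Rgs8.

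**Figure D5:**
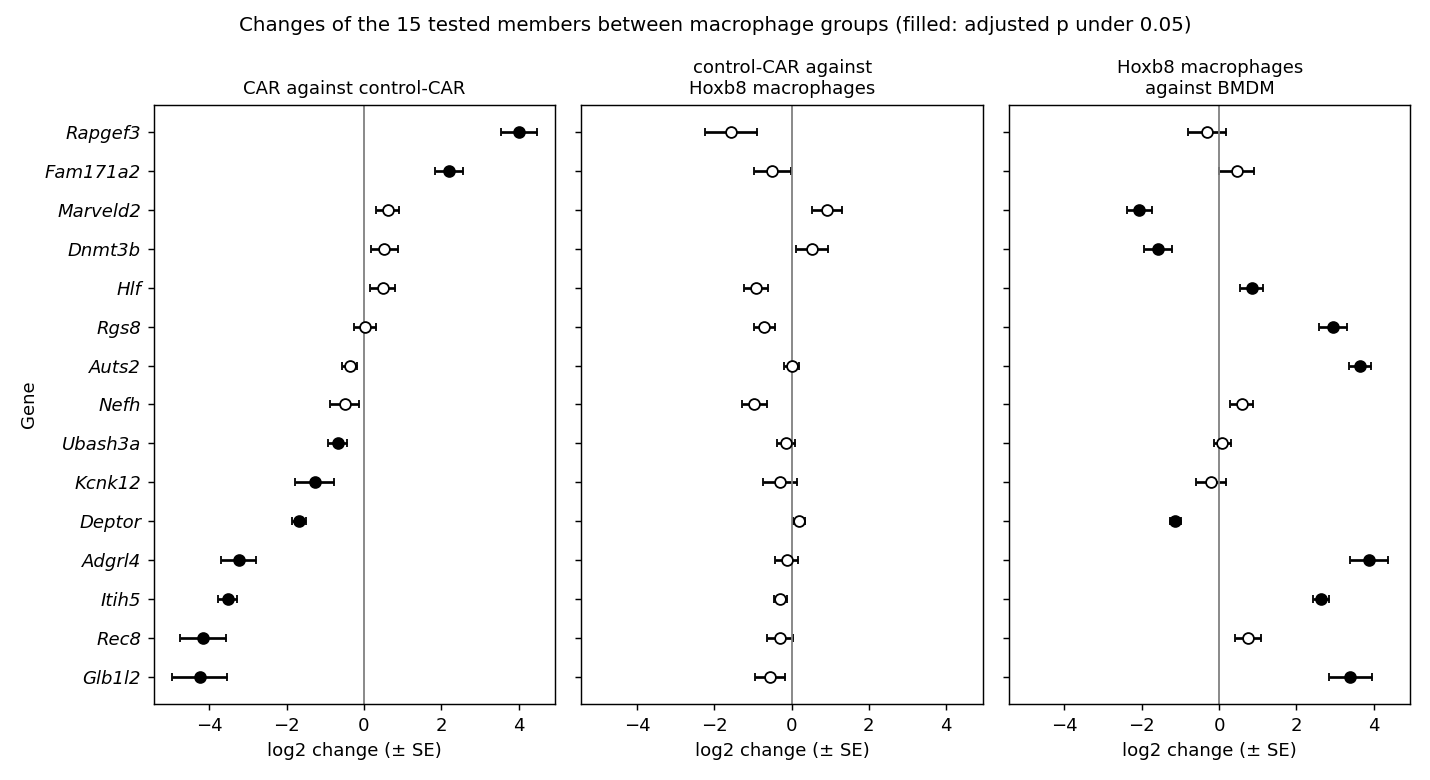
Log2 change with its SE (edgeR) of the 15 tested genes in the 3 comparisons, with filled points where the adjusted p is under 0.05. The left panel holds 9 filled points, the middle panel 0 and the right panel 9.

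Adgrl4, Glb1l2 and Itih5 shared an order of groups, with both control-CAR and Hoxb8 macrophages above both CAR libraries and BMDM in every library. Adgrl4 and Glb1l2 passed the count filter only through control-CAR libraries and Hoxb8 macrophages, so their order is a description. How many of all genes tested had this order was not counted. Control-CAR and Hoxb8 macrophages differed in 1.7% of all genes tested, CAR and control-CAR libraries in 77.3%, and Hoxb8 macrophages and BMDM in 68.4%. The remaining level of Adgrl4, Glb1l2 and Itih5 was 0.55%, 0.16% and 3.33% of the progenitor mean in control-CAR libraries and 0.58%, 0.22% and 3.96% in Hoxb8 macrophages. Within one group the remaining percentage varied widely between genes, so that Hoxb8 macrophages held 0.28% of the progenitor level of Hlf, 1.21% for Deptor, 3.56% for Rec8 and 5.30% for Ubash3a.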

How the data were processed

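The authors' table, per the file headers, held estimated counts, FPKM and TPM of 17030 genes in 15 libraries. The estimated counts were deposited without normalization and carried decimals: 94.4% to 96.0% of them per library were whole. The FPKM values were scaled by the authors to transcript length and library total, per the file headers, and TPM, also deposited, served as an alternative unit. The submitters' processing notes name HISAT2, Bowtie2, RSEM 1.3.1, DESeq2 1.4.5 and GRCm38.p6, without roles. Per the labels' protocols, RNA was selected with oligo(dT). The strand setting is not given in the sources used here. The table's 15 columns of averages were not used.

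The 25 genes were found from FPKM, and all 25 matched RefSeq by gene identifier. The genes, marker lists and gene lists were chosen with earlier results of these data known. Rounded estimated counts of the 12 macrophage libraries were tested with edgeR 4.0.16 (R 4.3.3; quasi-likelihood, TMM, two-sided, group means), which was checked on simulated counts. Calls were made at an adjusted p under 0.05. Progenitors were left out of the fit so that the spread was estimated at macrophage levels. Genes named with values were the 15 highest in progenitors, those with known roles in blood, signalling, transcription or chromatin, those called, and those nearest the limits. Alternatives used limma 3.58.1 on log2(FPKM + 1) and DESeq2 1.42.0. A count of 0 allows up to 3 counts, 0.156 to 0.177 CPM per library. No 2 libraries of a group agreed within counting noise (chi-square per degree of freedom 1.40 to 21.3). The values of 1 of the 25 genes and of 1 marker are not reported here.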

Additional observations from a re-analysis of the deposited data

How the results depend on the processing

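The number of genes follows the limits: 12 with a macrophage limit of FPKM 0.5, 50 with a limit of 2, 49 with a progenitor minimum of 5 and 7 with a minimum of 20. With TPM and the same limits there were 29, of which 16 were among the 25. Leaving out 1 library gave 25 to 26. Of 530 values of single genes under the alternatives, 499 kept their side of the threshold, 17 lost a call and 14 gained one. No called value changed sign, and 11 values of 5 differences that were not called did (Auts2, Kcnk12, Rapgef3, Rgs8 and Ubash3a). Genes called numbered 332 with DESeq2 and 115 with the replicate number as a block for control-CAR against Hoxb8 macrophages, and 54 to 173 with 1 library left out: 54 without control-CAR replicate 3, 66 without Hoxb8 macrophage replicate 1 and 99 without Hoxb8 macrophage replicate 2. Among the 15 tested genes, 7 to 10 were called for CAR against control-CAR and 8 to 10 for Hoxb8 macrophages against BMDM with 1 library left out. For these pairs the main fit called 77.3% and 68.4% of all genes tested. With no filter beyond 1 count in any library, 13 of all 25 genes were called for the last pair. The share of all genes called at that setting is not given here, so this count does not set the 25 apart. Bex6, Insm1, Limch1 and Tpd52l1 were added to the 9, each with at most 7 counts over the libraries of either group. Calls over all genes for CAR against control-CAR were 5422 higher and 4554 lower, but 7389 and 2836 with library totals. For Hoxb8 macrophages against BMDM they were 3960 and 4867, but 2665 and 6341. The replicate block changed none of the members' calls (9, 0 and 9). Same-number correlations were −0.15 to 0.0029, against −0.13 to 0.18 for different numbers. With 3 libraries per group these values cannot show whether the numbers pair libraries. The cause of these shifts was not tested. Depth limits the 10 untested genes, most of which have under 10 counts in each macrophage library.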
